A study of Bos taurus with 43 samples.

Results

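The comparison covered 8 of the 43 cattle muscles of the series, namely those of the 4 positive animals (S21, S54, S56 and S57) and of the 4 unknown animals (50, 78, 79 and 81) whose arrays lay on the same 2 slides as the positive animals. They were chosen by slide and by the submitted status. Slide 1 held S56, S57, 81 and 50, and slide 2 held S21, S54, 78 and 79. The control animals lay on slides without a positive animal, so that only here could the positive animals be set against other cattle within a slide. These controls were untreated males of earlier experiments, namely 5 Charolais and Limousine crosses (control_K) and 13 Holstein cattle (control_C).

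All 8 samples were biceps brachii, a muscle of the fore limb, taken from male beef cattle at the slaughterhouse, mostly of Charolais, Limousine or mixed breed. The positive animals are labelled as suspected of corticosteroid treatment, and the study named them from thymus histology and from dexamethasone in urine. The unknown animals are commercial cattle whose treatment history is not known, so they are no untreated control. In the study's urine test dexamethasone was not detected in the unknown animals compared here, and in S56 it was below the limit of quantification. Beyond this urine result, the agent, dose and date of any treatment are not given. Neither is the commercial batch from which each animal came. Each muscle was hybridized once, as 1 animal per array.

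Glucocorticoids such as dexamethasone enter cells and bind the glucocorticoid receptor, a transcription factor that switches on genes such as FKBP5, PER1, KLF9 and CEBPD. They restrain immune cells, lower collagen synthesis and, in skeletal muscle, favour protein breakdown in fast fibres. Muscle holds, beside its fibres, fibroblasts that lay down collagen, resident macrophages and other leukocytes, vessels, nerve and fat. In bulk RNA, fewer cells of a type and less RNA per cell cannot be told apart.

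No probe passed the test between positive and unknown animals. Of 16354 probes tested with limma with slide as a block, 0 had an adjusted p under 0.05 and a difference of at least 2-fold (0% of those tested), and the smallest adjusted p was 0.0619. At an unadjusted p under 0.05 there were 1873 probes (11.5%), of which 700 (4.28%) were higher and 1173 (7.17%) were lower in the positive animals. Of these, 37 higher and 348 lower probes differed by at least 2-fold. The values that follow are therefore a description of these 8 muscles, and a list's share of lower members is to be read against 7.17%. This split depended on the scaling, since 62.6% of the probes at an unadjusted p under 0.05 were lower with cyclic loess and 30.9% with quantile normalization. The median log2 difference over all probes was 0.02 with cyclic loess and 0.13 with quantile normalization.

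Among the gene lists, 4 stood lowest in the positive animals, namely leukocyte markers, fibroblast and matrix genes, antigen presentation genes and glucocorticoid-induced genes. Their median log2 differences (positive minus unknown) were -1.10, -0.96, -0.82 and -0.64. Genes that mark muscle fibres showed no such shift, with a median of -0.01 over 15 skeletal muscle markers and 0 of them at an unadjusted p under 0.05. All 15 muscle markers passed the filter, and 14 were well above background on all 8 arrays. Animal 79's array differs from the others in quality, and animal 78 had the highest matrix and leukocyte levels, so values without them are also given.

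**Figure D1:**
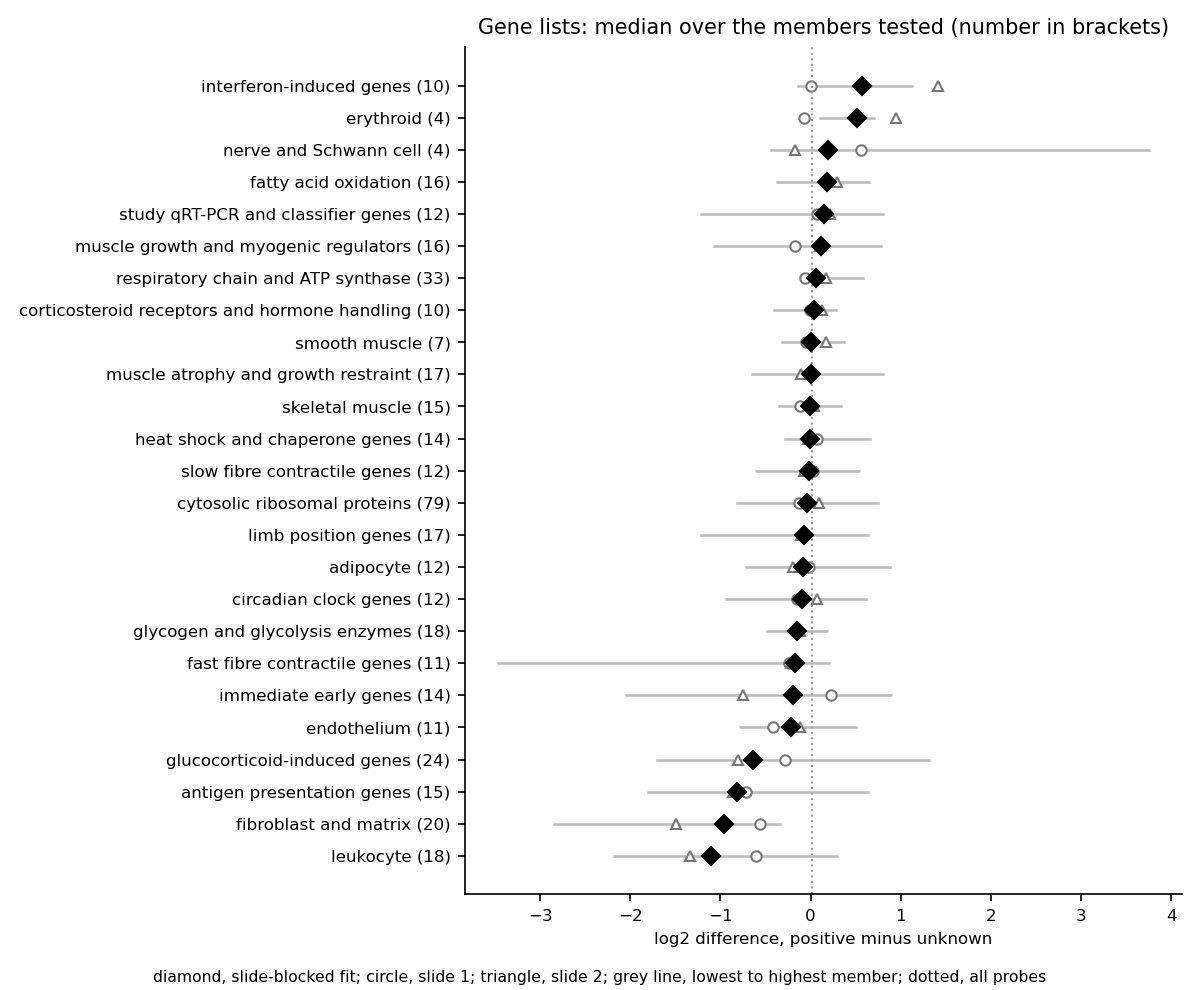
Median log2 difference (x axis, positive minus unknown) for each gene list (y axis, with the number of members tested). Diamonds give the slide-blocked fit, open circles and triangles the difference within slide 1 and slide 2, and grey lines run from the lowest to the highest member. Leukocyte, matrix, antigen presentation and glucocorticoid-induced genes lie to the left on both slides, from -1.10 to -0.64, and muscle markers lie at -0.01.

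All 20 genes of the fibroblast and matrix list passed the filter, and all 20 had a lower mean in the positive animals, on slide 1 and on slide 2 alike. Of them, 13 were at an unadjusted p under 0.05, 0 were called, and 9 had ranges that did not overlap between the 4 positive and 4 unknown animals (6.63% of all probes did not overlap). The list's median difference was -0.56 on slide 1 and -1.49 on slide 2. The summed signal of its 20 probes was 44400 in S21, 48800 in S54, 40300 in S56 and 26800 in S57. It was 67400 in animal 50, 191000 in 78, 82200 in 79 and 69000 in 81. SPARC, a matrix protein that binds collagen, had the brightest probe of the list.

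COL3A1, a fibrillar collagen of loose connective tissue, had a log2 signal of 10.9 in S21, 10.45 in S54, 9.8 in S56 and 8.56 in S57. Its signal was 11.44 in animal 50, 12.62 in 78, 12.38 in 79 and 11.66 in 81. Every positive muscle lay below every unknown muscle. The log2 difference was -2.10 (standard error 0.29, adjusted p = 0.14), which is 4.28-fold, with -2.37 on slide 1 and -1.83 on slide 2. COL1A1, the main collagen of tendon and bone, had means of 10.17 ± 0.86 (SD, n = 4) and 12.37 ± 1.4, again without overlap. Its difference of -2.20 had a standard error of 0.52 and an adjusted p of 0.213.

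SPARC was measured at 14.31 in S21, 13.74 in S54, 14.19 in S56 and 13.58 in S57. The unknown animals were at 15.22 (50), 15.95 (78), 15.24 (79) and 15.2 (81). The statuses did not overlap, and the difference was -1.45 (standard error 0.23, adjusted p = 0.142). The microfibril collagen COL6A3 (-1.21) and the fibril-regulating collagen COL5A2 (-1.25) did not overlap either, with adjusted p of 0.142 and 0.143. Fibronectin FN1 (-1.36) overlapped between the statuses. Decorin DCN was at -0.70 by its brighter probe and at 0.54 by its other probe, so its direction is not settled.

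**Figure D2:**
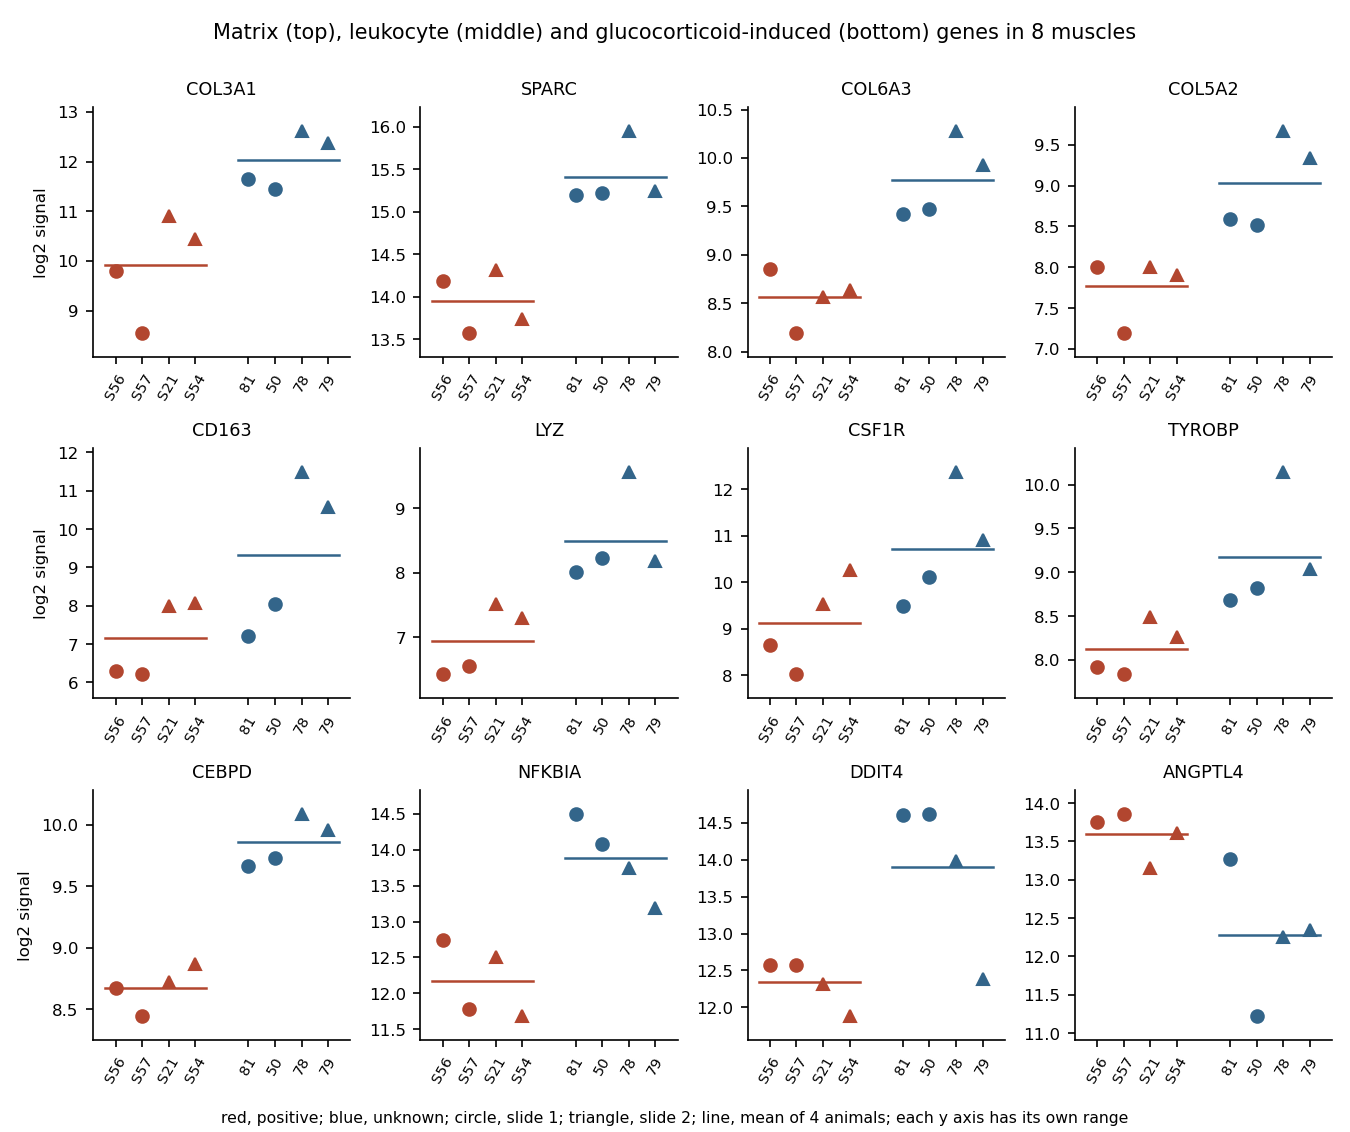
Log2 signal (y axis, own range in each panel) of 12 genes in each of the 8 animals (x axis), with positive animals in red, unknown animals in blue, circles for slide 1, triangles for slide 2 and lines at the mean of 4 animals. The 4 red points lie below the 4 blue points for COL3A1, SPARC, COL6A3, COL5A2, LYZ, TYROBP, CEBPD and NFKBIA, and they overlap for CD163, CSF1R, DDIT4 and ANGPTL4.

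Of 22 leukocyte markers, 21 were on the array and 18 passed the filter. Of the 18, 10 were lower at an unadjusted p under 0.05, 0 were higher and 0 were called, and 15 had a lower mean in the positive animals. The list's median difference was -0.61 on slide 1 and -1.34 on slide 2. Its brightest probe was that of C1QA, a chain of complement C1q made by macrophages. CD79B, ITGAM and MS4A1, which mark B cells or myeloid cells, did not pass the filter, and 9 of the 18 were well above background on all 8 arrays. The summed signal of the 18 probes was 6500 in S21, 9320 in S54, 3500 in S56 and 2790 in S57, against 8100 in animal 50, 43100 in 78, 11500 in 79 and 5940 in 81. Animal 78 thus stood far above the other 7.

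Single members differed in whether the statuses overlapped. CD163, the haemoglobin scavenger receptor of tissue macrophages, was at 8 in S21, 8.08 in S54, 6.29 in S56 and 6.22 in S57. It was at 8.04 in animal 50, 11.48 in 78, 10.58 in 79 and 7.22 in 81, so that animal 50 was level with S21 and S54 and the statuses overlapped. The difference within slides was -1.37 and -2.99, and the fitted difference was -2.18 (standard error 0.38, adjusted p = 0.142). LYZ, the antibacterial enzyme lysozyme, did not overlap, with 7.52, 7.3, 6.43 and 6.55 in S21, S54, S56 and S57 and 8.23, 9.56, 8.19 and 8.02 in animals 50, 78, 79 and 81. Its difference was -1.55 (standard error 0.28, adjusted p = 0.146).

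CSF1R, the receptor for the macrophage growth factor CSF1, was at -1.60, and TYROBP, a signalling adaptor of myeloid receptors, at -1.04, with adjusted p of 0.198 and 0.211. The complement chains C1QA (-1.88), C1QB (-1.61) and C1QC (-1.57) overlapped between the statuses. The T cell genes had both signs. CD3E of the T cell receptor complex was at -1.19 (adjusted p = 0.425) and CD3D of the same complex at 0.24 (adjusted p = 0.769). CD3E ranged from 6.42 to 6.8 in the positive animals and did not overlap with the unknown animals, which were at 7.41 (50), 9.68 (78), 7.15 (79) and 7.23 (81). In the fit with array position as a term, described below, CD3E was at -0.15.

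Antigen presentation genes load peptides onto major histocompatibility complex proteins, of class II mainly in macrophages, dendritic cells and B cells. Of 17 on the array, 15 passed the filter, 8 were lower at an unadjusted p under 0.05 and 0 were higher or called. BOLA-DRA, a class II alpha chain, was at 12.29 in S21, 12.51 in S54, 11.92 in S56 and 11.28 in S57, and at 12.71 in animal 50, 14.2 in 78, 13.28 in 79 and 12.84 in 81. No positive muscle reached the lowest unknown muscle, and the difference was -1.26 (standard error 0.24, adjusted p = 0.166). CD74, the invariant chain that guards the class II groove, was at -1.08 (standard error 0.19, adjusted p = 0.142), with -1.07 on slide 1 and -1.09 on slide 2. The immunoproteasome subunits PSMB9 (-0.92) and PSMB8 (-0.68) and the peptide transporter TAP2 (-0.82) overlapped. Class II probes can bind more than 1 allele or copy of these closely related genes, and which of them gave the signal was not tested.

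Genes known to be induced by glucocorticoids were on balance at lower levels in the positive animals. Of 26 genes in the list 25 were on the array and 24 were tested. Of the 24, 20 had a lower mean, 11 were lower and 1 was higher at an unadjusted p under 0.05, and 0 were called. The median difference was -0.28 on slide 1 and -0.80 on slide 2. FKBP5, the receptor co-chaperone that is a classical target, was at -1.29 (standard error 0.56, adjusted p = 0.44), with 0.18 on slide 1 and -2.76 on slide 2. It was at 13 in animal 78 and 13.47 in 79 and between 10.4 and 11.16 in the other 6. The difference was 0.07 for TSC22D3, the leucine zipper mediator GILZ. The glucocorticoid receptor NR3C1 was at -0.06 (standard error 0.24), the mineralocorticoid receptor NR3C2 was at 0.07, and 0 of 10 receptor and hormone handling genes were at an unadjusted p under 0.05.

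CEBPD, a transcription factor of the acute phase and of fat cell formation, was one of the 10 lower genes with the smallest p. It was at 8.72 in S21, 8.87 in S54, 8.67 in S56 and 8.45 in S57, and at 9.73 in animal 50, 10.09 in 78, 9.96 in 79 and 9.67 in 81. The values of each status lay close together and the statuses did not overlap. The difference was -1.18 (standard error 0.13, adjusted p = 0.0977), with -1.14 on slide 1 and -1.23 on slide 2, and both CEBPD probes had the same sign.

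NFKBIA, the inhibitor that holds NF-kappa-B in the cytoplasm, was at 12.5, 11.69, 12.74 and 11.78 in S21, S54, S56 and S57. The unknown animals 50, 78, 79 and 81 were at 14.08, 13.75, 13.19 and 14.5. The statuses did not overlap, and the difference was -1.70 (standard error 0.30, adjusted p = 0.143). DDIT4, an inhibitor of mTORC1, was between 11.89 and 12.58 in the positive animals and at 14.62, 13.98 and 14.61 in animals 50, 78 and 81. Animal 79 was at 12.38, within the range of the positive animals, and the difference was -1.56 (standard error 0.36, adjusted p = 0.211).

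FOXO3, a transcription factor that drives atrophy genes, was at -0.79, the cell cycle inhibitor CDKN1A at -0.79 and the metal-binding protein MT1A at -0.98, with adjusted p of 0.166, 0.191 and 0.244. PDK4, which shuts pyruvate out of the mitochondrion, was at -1.22 (adjusted p = 0.293). SGK1, a kinase of ion transport, was at -0.76 by its brighter probe and at 0.33 by its other one. RASD1, a small GTPase named for its induction by dexamethasone, was not in the list but was among the 10 lower genes with the smallest p. It was at 10.62, 10.32, 10.72 and 9.92 in S21, S54, S56 and S57 and at 11.58, 12.1, 12.27 and 11.55 in animals 50, 78, 79 and 81, with a difference of -1.48 (standard error 0.21, adjusted p = 0.14).

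ANGPTL4, a secreted inhibitor of lipoprotein lipase, was the list's only member that was higher at an unadjusted p under 0.05. Its signal was 13.15 in S21, 13.61 in S54, 13.75 in S56 and 13.86 in S57. The unknown animals were at 11.23 (50), 12.26 (78), 12.34 (79) and 13.27 (81), so that animal 81 lay within the positive range. The difference was 1.32 (standard error 0.40, adjusted p = 0.309).

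The array position on the slide ran with status. On both slides the positive animals lay at positions 1 and 2 and the unknown animals at positions 3 and 4, so that status and position cannot be told apart from these 8 arrays. Position could be looked at among unknown animals alone, on 4 other slides with 14 arrays, each slide holding animals at positions 1 or 2 and at 3 or 4. The limma fit held all 35 arrays of other slides, so the spread behind its p-values also came from control animals. Among these unknown animals the matrix list was lower at positions 1 and 2 than at positions 3 and 4, with a median log2 difference of -0.57. In that list 4 of 20 members were lower at an unadjusted p under 0.05 (3.77% of all probes). The leukocyte median was -0.36 with 0 of 18 members, and the antigen presentation median -0.53 with 3 of 15 members. The glucocorticoid-induced list ran the other way, at 0.33, with 9 of 24 members higher (5.45% of all probes) and 1 lower.

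Among these other slides, only 7 and 9 held unknown animals at all 4 positions. Slides 8 and 11 also held unknown animals alone but did not fill every position, and they are not shown by animal. The mean log2 level of the matrix list was 9.15, 9.04, 10.06 and 9.78 at positions 1 to 4 of slide 7. On slide 9 it was 9.78, 9.21, 10.34 and 10.79. Both slides were thus lower at positions 1 and 2. The glucocorticoid-induced list was at 11.12, 11.2, 10.79 and 10.46 on slide 7 and at 11.16, 11.58, 10.81 and 10.52 on slide 9, higher at positions 1 and 2 on both. Which of these animals came from the same batch is not given, so position and origin cannot be told apart there.

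A fit over all 43 arrays had position (1 or 2 against 3 or 4) as a term. Since position equals status on the shared slides, its position difference came from the other slides alone. The status difference of this fit is thus that of the shared slides less the position difference among other animals. That position difference cannot be told apart from the origin of those animals, so the fit does not separate status from position. The median was then -0.41 for the matrix list and -0.27 for the antigen presentation list, with 2 of 20 and 0 of 15 members lower at an unadjusted p under 0.05 (3.16% of all probes). The leukocyte median was -0.70 with 2 of 18 members. The glucocorticoid-induced median was -0.84, with 14 of 24 members lower and 0 higher (1.7% of all probes were higher). In this fit CEBPD was at -2.72, RASD1 at -2.36 and NFKBIA at -2.18, with adjusted p of 0.332, 0.157 and 0.325, and 0 probes were called. Other genes were nearer to 0 in this fit than on the shared slides alone. COL3A1 was at -1.22, SPARC at -0.87, BOLA-DRA at -0.55 and CD74 at -0.36, with adjusted p of 0.926 to 1. The median standard error grew from 0.27 without the term to 0.33 with it.

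**Figure D3:**
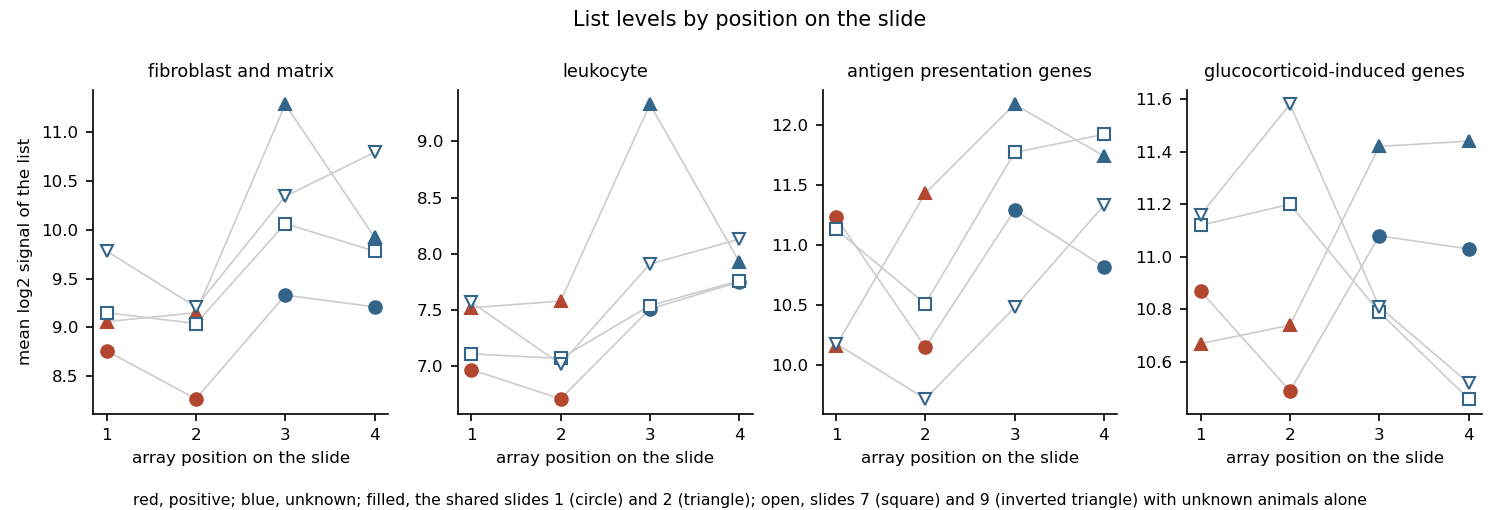
Mean log2 signal of 4 gene lists (y axis) against the position of the array on its slide (x axis), for the shared slides 1 and 2 (filled; red positive, blue unknown) and for slides 7 and 9 with unknown animals alone (open). Slides 8 and 11, with unknown animals alone but not at every position, are not shown. Matrix genes are lower at positions 1 and 2 on all 4 slides shown. Glucocorticoid-induced genes are lower there on the shared slides and higher there on slides 7 and 9.

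The arrays differed in quality. The share of gene spots well above background was 74.95% in S21, 77.59% in S54, 81.96% in S56 and 89.4% in S57, and 97.29% in animal 50, 83.83% in 78, 40.21% in 79 and 82.01% in 81. Animal 79 was also farthest from the rest, with a mean root mean square log2 distance of 0.88 to the other 7 arrays, followed by 78 with 0.74, and the remaining 6 lay between 0.58 and 0.66. Without animal 79, 9 probes were called, all lower in the positive animals. They included LYZ (-1.84), DDIT4 (-1.97), AIF1 (-1.98), FGD2 (-2.15) and RNASE6, a leukocyte ribonuclease, at -1.72, with adjusted p between 0.0337 and 0.0464. Leaving out any of the other 7 animals gave 0 calls.

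Without animal 79 the matrix median was -1.18 with 18 of 20 members lower at an unadjusted p under 0.05, and the leukocyte median -1.27 with 12 of 18. Without animal 78 these were -0.57 with 11 of 20 and -0.68 with 9 of 18. Over all 16354 probes, 1211 were lower without 79 and 1242 without 78. Animals 78 and 79 are the only unknown animals of slide 2, so without both the comparison is that within slide 1, where the matrix, leukocyte, antigen presentation and glucocorticoid-induced medians were -0.56, -0.61, -0.72 and -0.28. There 8, 10, 8 and 6 of their members were lower at an unadjusted p under 0.05, as were 567 of all 16354 probes. The size of the matrix and leukocyte medians thus depended on animal 78.

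Over all probes, arrays of different status were farther apart than arrays of the same status once slide means were removed. The mean distance was 0.644 between and 0.567 within statuses, a difference of 0.0772. An exact two-sided permutation of status within slides gave p = 0.0556, which is the smallest p that the 36 possible splits allow. The difference was 0.0347 without S54 (exact permutation, p = 0.333), 0.0509 without S21 (p = 0.167) and 0.0486 without S57 (p = 0.278), and 0.0328 with normexp background correction (p = 0.222). The spread among the 4 positive animals was not shown to differ from that among the unknown animals, with a median variance ratio of 0.561 (exact two-sided permutation, p = 0.278). S56 and S57, of slide 1, were the closest pair at 0.47, and S56 and 81, of different status on the same slide, followed at 0.48.

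**Figure D4:**
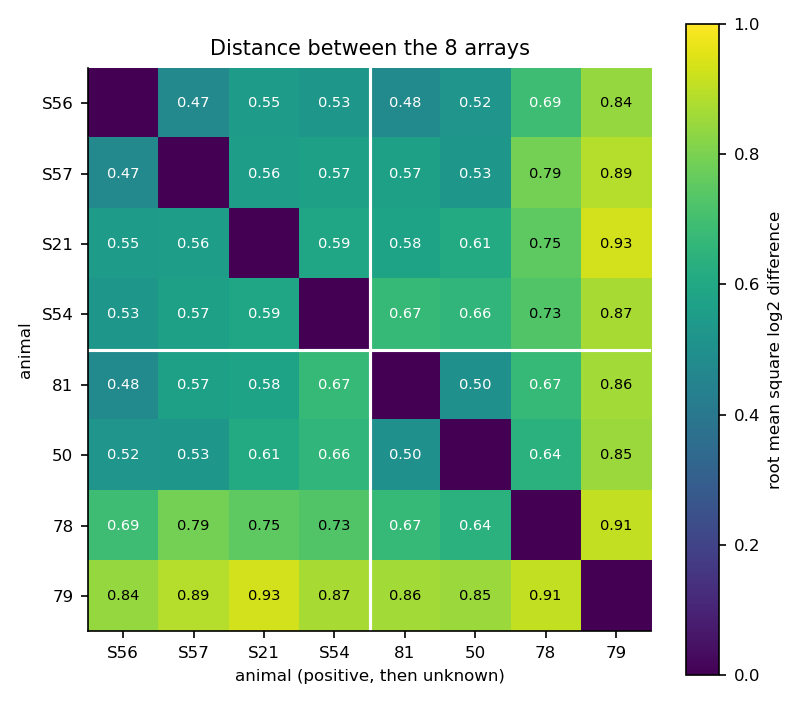
Root mean square log2 difference between each pair of the 8 arrays over the probes tested (colour and printed value), with positive animals first on both axes. Animal 79 is at 0.84 to 0.93 from every other array, and S56 and S57 are closest, at 0.47.

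Slides differed as well. Between slides 1 and 2, 1435 probes (8.77%) were at an unadjusted p under 0.05 and 1 was called, CLEC12A, an inhibitory lectin receptor of myeloid cells. It was higher on slide 2 by 2.16 (standard error 0.18, adjusted p = 0.0415), but only 2 of 4 positive and 3 of 4 unknown arrays were well above background for it, so the sizes of its differences are uncertain. It was also among the lowest p between the statuses, at -1.86 (adjusted p = 0.0638), with 5.43, 5.65, 3.67 and 3.72 in S21, S54, S56 and S57 and 5.3, 7.54, 7.88 and 5.18 in animals 50, 78, 79 and 81. The difference between the statuses was not shown to depend on the slide, with 0 probes called for the interaction and 647 at an unadjusted p under 0.05. Both slides gave the same sign for 60.2% of all probes.

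Among single genes, a rule of at least 2-fold, no overlap within either slide and clear detection on all 4 arrays of the status with more signal took the 10 with the smallest p in each direction. None passed the test. Besides CEBPD, COL3A1 and RASD1, the 10 lower genes were FGD2, RASSF2, CKB-8, CD48, AIF1, IRF8 and LOXL4. FGD2, an activator of the GTPase CDC42, was at 7.94, 8.03, 7.24 and 6.96 in S21, S54, S56 and S57 and at 8.98, 10.73, 9.86 and 8.71 in animals 50, 78, 79 and 81. Its difference was -2.03 (standard error 0.23, adjusted p = 0.0977), which is 4.08-fold.

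The chemokine that the array describes as CCL23 (CKB-8) was at -1.94 and CD48, an adhesion receptor of leukocytes, at -2.04. AIF1, an actin-binding protein of macrophages, was at -1.76, and IRF8, a transcription factor of the myeloid and dendritic lineages, at -1.51. The Ras effector RASSF2 was at -1.56 and LOXL4, an enzyme that cross-links collagen and elastin, at -1.44. Adjusted p of these 6 genes were 0.14 to 0.142. With the position term FGD2 was at -1.16, CKB-8 at -1.34, CD48 at -1.24, AIF1 at -0.98, IRF8 at -0.79, RASSF2 at -0.77 and LOXL4 at -1.52, with adjusted p of 0.817 to 1.

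Of the 10 higher genes, TMEM74B had the smallest p. TMEM74B, a transmembrane protein, was at 5.96, 6.1, 5.55 and 5.77 in S21, S54, S56 and S57 and at 4.76, 4.9, 5.12 and 4.47 in animals 50, 78, 79 and 81. It did not overlap, and its difference was 1.03 (standard error 0.14, adjusted p = 0.14). HS3ST5, which adds sulfate to heparan sulfate chains, was at 9.03, 10.01, 9.42 and 9.73 in the positive and at 8.65, 7.07, 6.69 and 8.41 in the unknown animals in the same order. It did not overlap either, and its difference was 1.84 (standard error 0.37, adjusted p = 0.166).

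The scavenging chemokine receptor ACKR4 was at 1.22, the tetraspanin TSPAN12 at 1.2 and GTF2F2, a subunit of transcription factor IIF, at 1.58, with adjusted p of 0.166 to 0.176. A probe placed at HOXC4, which the array describes as HOXC5, was at 1.42, and the second HOXC4 probe at -0.17. The protein disulfide isomerase TXNDC5 was at 1.15, the MYC network protein MXD3 at 1.03, the GSK3-binding protein GSKIP at 1.06 and the actin regulator KANK1 at 1.14, with adjusted p of 0.202 to 0.223. The second MXD3 probe, the brighter of the pair over these arrays, was at -0.38. All 10 were well above background in the 4 positive animals, as the rule required. None was so on all 4 unknown arrays, where animal 79 had the fewest such spots, and the part of dim signal in these values was not tested.

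Of 11 fast fibre genes tested, 1 was lower at an unadjusted p under 0.05 and 0 were higher. Without animal 79, 4 of 11 were lower, with a median of -0.26. Among unknown animals on other slides the median of this list was -1.05 at positions 1 and 2 against 3 and 4, with 5 of 11 lower, and with the position term the median between the statuses was 0.06 with 0 of 11. MYH1, the myosin heavy chain of fast IIx fibres, was at 15.25 in S21, 8.96 in S54, 11.24 in S56 and 10.42 in S57. It was at 16.41 in animal 50, 15.57 in 78, 10.35 in 79 and 17.42 in 81, so S21 was near the high unknown animals and 79 near the low positive ones. The difference was -3.47 with a standard error of 1.75 (adjusted p = 0.505). TNNC2, the calcium-binding troponin of fast fibres, MYBPC2, the fast myosin-binding protein, and ATP2A1, the fast calcium pump, had S54 lowest or next to lowest and animal 81 highest. Their differences were -1.99, -2.81 and -1.86, with adjusted p of 0.572, 0.46 and 0.425.

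Not every fast gene followed. MYH4 differed by 0.02 and MYL1, the fast essential light chain, by -0.15, and the list's median was -0.17. With the position term TNNC2 was at 0.15, MYBPC2 at 0.06, ATP2A1 at -0.23 and MYH1 at -1.69. MYH4 was then at -0.61 and MYL1 at 0.01. MYH1 ranged from 15.34 to 16.06 in the 5 control_K animals and from 16.99 to 17.69 in the 13 control_C animals, which lay on other slides, and from 8.3 to 17.2 in the 17 unknown animals on other slides. Of 12 slow fibre genes, MYOZ2 (0.50), a Z-disc protein, was higher and tropomyosin TPM3 (-0.61) was lower at an unadjusted p under 0.05. With the position term MYOZ2 was at -0.11, the opposite sign, and TPM3 at -0.36.

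**Figure D5:**
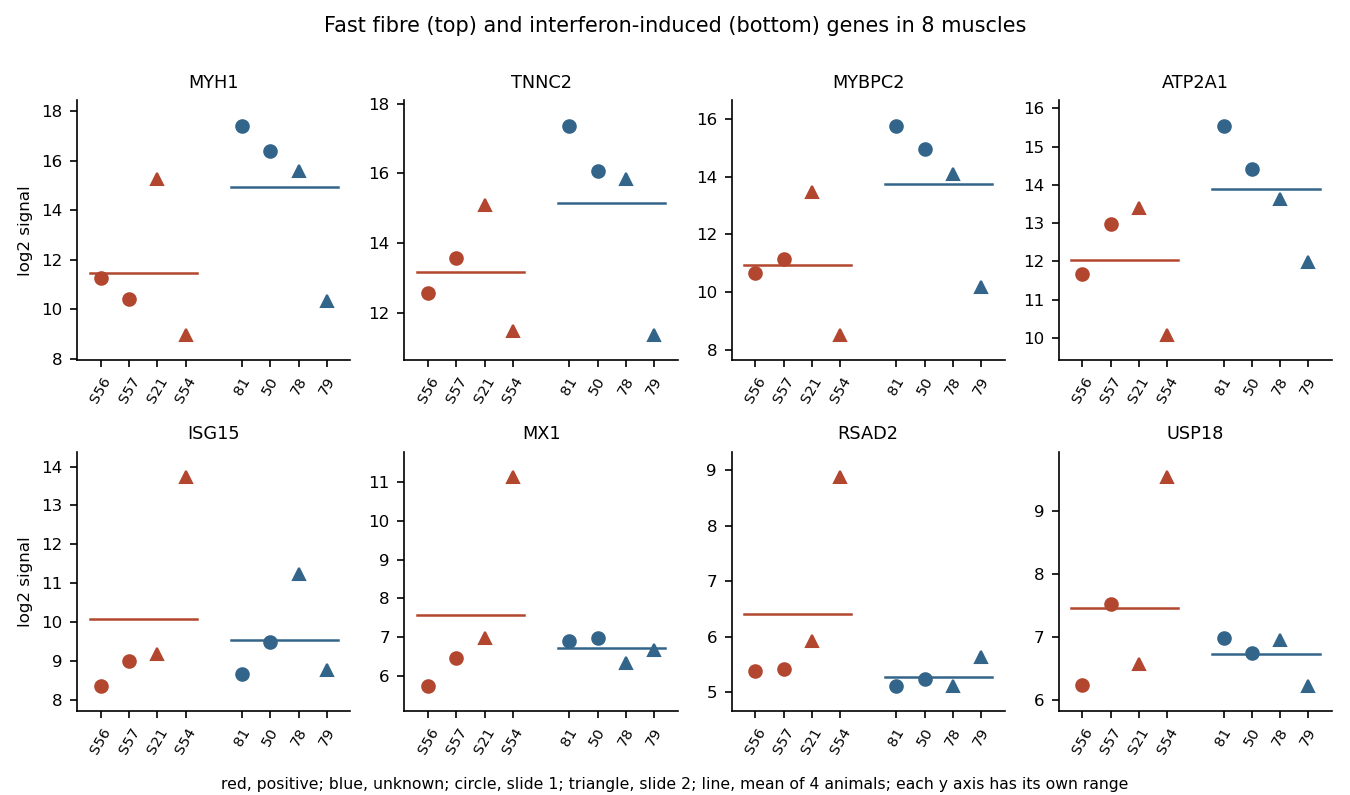
Log2 signal (y axis, own range in each panel) of 4 fast fibre genes and 4 interferon-induced genes in each of the 8 animals (x axis); colours, symbols and lines are as in the plot of matrix and leukocyte genes. MYH1 spans 8.96 to 17.42 with overlap between the statuses, and the interferon-induced genes are highest in S54.

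Interferon-induced genes, which block viral replication, were high in 1 positive animal. The mean log2 level of the 10 genes tested was 9.08 in S54, against 6.5 in S21, 6.03 in S56 and 6.24 in S57. The unknown animals were at 6.28 (50), 6.6 (78), 6.39 (79) and 6.22 (81). ISG15, a ubiquitin-like protein, was at 13.74 in S54 and between 8.36 and 11.24 in the other 7 animals. MX1, a GTPase that traps viral nucleocapsids, was at 11.14 in S54 and at 6.99 or less elsewhere. The list's median difference was 0.57, with 1 member higher at an unadjusted p under 0.05, and it was -0.06 without S54. With the position term it was 1.01 with 3 of 10 higher, and among unknown animals on other slides it was -0.24 at positions 1 and 2 with 2 of 10 lower.

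Of 16 growth and myogenic regulators, IGF1 (-1.07) and IGF2 (-0.79), the insulin-like growth factors, were lower and the imprinted gene DLK1 (0.49) was higher at an unadjusted p under 0.05. The second IGF2 probe, a dim one, was at 0.18. IGF1 was at 7.32, 7.59, 6.79 and 6.6 in S21, S54, S56 and S57 and at 7.29, 8.4, 9.1 and 7.79 in animals 50, 78, 79 and 81. Animal 50 was within the positive range, and the adjusted p was 0.172. With the position term IGF1 was at -0.55, IGF2 at -0.75 and DLK1 at 0.28. Of 17 atrophy and growth restraint genes, DDIT4L, an mTOR inhibitor, was at 0.80 and GABARAPL1 of autophagy at -0.65. The atrophy ligase TRIM63 was at -0.45 (adjusted p = 0.541).

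In fatty acid oxidation 3 of 16 genes were higher at an unadjusted p under 0.05 and 0 lower, namely the fatty acid carrier FABP3 (0.59), the dehydrogenase ACADM (0.47) and the thiolase HADHB (0.55). Among unknown animals on other slides 3 of 16 were also higher at positions 1 and 2, with a median of 0.24. With the position term the median between the statuses was -0.06 with 0 of 16 higher, and ACADM (-0.25), HADHB (-0.11) and ATP5PB (-0.16) had the opposite sign. The respiratory chain had a median of 0.06 with 1 of 33 higher, ATP5PB (0.58), and glycolysis a median of -0.15 with 0 of 18. Cytosolic ribosomal proteins had a median of -0.04 over 79 genes, with 1 higher and 2 lower. Heat shock genes had 2 of 14 higher, the small heat shock proteins HSPB6 (0.66) and HSPB7 (0.49). Of 12 clock genes, PER2 (-0.94) and CRY2 (-0.54) were lower and BHLHE41 (0.39) was higher. Adjusted p of the genes named here were 0.247 to 0.421.

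The endothelial median was -0.22 with 1 of 11 lower, ROBO4 (-0.78), and the smooth muscle median 0.01 with 0 of 7. Without animal 78 the endothelial median was -0.41 with 3 of 11 lower, as were 1242 of all 16354 probes. The adipocyte median was -0.08, with DGAT2 (0.88), an enzyme of triglyceride synthesis, higher and THRSP (-0.50) lower. The erythroid median was 0.52, with -0.07 on slide 1 and 0.95 on slide 2, and all 4 genes had a higher mean. Of these, AHSP (0.71), a chaperone of alpha globin, was higher at an unadjusted p under 0.05. The nerve and Schwann cell median was 0.19 over 4 genes.

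The 12 genes that the study took to qRT-PCR or used to classify animals include classifier genes that it chose with the positive animals among its samples, so their values are no independent evidence. DDIT4L was at 11.43, 11.67, 12.35 and 11.69 in S21, S54, S56 and S57 and at 11.22, 10.83, 9.91 and 11.98 in animals 50, 78, 79 and 81. NAT14, an acetyltransferase family member, was between 12.42 and 12.53 in the positive and between 11.93 and 12.24 in the unknown animals, a difference of 0.34 (standard error 0.14, adjusted p = 0.419). ANKRD35, an ankyrin repeat protein, did not overlap either, at 0.33 (adjusted p = 0.448). With the position term NAT14 was at -0.03, ANKRD35 at 0.21 and DDIT4L at 1.64. The 10 genes other than DDIT4L and NAT14 were not at an unadjusted p under 0.05. HOXA9, a limb position gene, was at -1.22 but its spots exceeded background clearly on 1 array of each status.

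Levels in cattle on other slides are given as ranges with no test, since slide and group cannot be told apart there. Both control groups were untreated, and control_C, being Holstein, differed in breed as well. COL3A1 ranged from 11.1 to 14.06 in the 17 other unknown animals, from 10.73 to 13.48 in control_K and from 11.94 to 14.24 in control_C. The highest positive animal was at 10.9, so only the range of control_K reached that low. SPARC began at 14.35, 14.38 and 14.95 in the same groups, above the highest positive animal at 14.31. The matrix list averaged 8.27 to 9.15 among positive animals and 9.04 to 10.79 among the other unknown animals, with 8.87 to 10.79 in control_K and 9.66 to 11.38 in control_C.

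The leukocyte and glucocorticoid-induced levels were less distinct from those of other groups. For leukocyte markers the positive animals ranged from 6.71 to 7.58, and the list reached down to 6.6 in the other unknown animals and to 6.1 in control_K. For glucocorticoid-induced genes the positive animals ranged from 10.49 to 10.87, with 10.58 to 10.73 in control_K, 10.46 to 11.58 in the other unknown animals and 10.94 to 11.91 in control_C. CEBPD at 8.45 to 8.87 lay within the ranges of control_K (7.88 to 9.36), control_C (7.77 to 10.72) and the other unknown animals (7.08 to 11.09). RASD1 ranged from 9.92 to 10.72 among positive animals, within the 9.72 to 10.81 of control_K and the 9.89 to 13.58 of the other unknown animals, and control_C ranged from 10.3 to 12.63.

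A further 3 lists gave no common direction. Of 14 immediate early genes, KLF6 (-1.10), a zinc finger factor, was lower at an unadjusted p under 0.05 and 0 were higher. Of 17 limb position genes 1 was higher, and of 51 tested olfactory receptor probes, a family hardly used by muscle, 3 were higher and 1 was lower. Without animal 79, 4 of 17 limb position genes were higher and 0 lower, with a median of -0.13. Over all 16354 probes, 788 were higher without 79. HOXA9, by the probe that was brightest over all animals, was at 1.98 to 4.22 in the positive and 2.99 to 5.74 in the unknown animals of the shared slides. It ranged from 10.6 to 11.47 in control_K, from 10.3 to 11.67 in control_C and from 1.77 to 11.37 in the other unknown animals.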

How the data were processed

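RNA of each muscle was hybridized in 1 colour to an Agilent bovine array with 44407 spots, 42990 of them for 21475 gene probes. The deposited files hold spot intensity from Feature Extraction, version 9.5.1.1 for the 8 arrays compared and 9.1.3.1 or 9.5.3.1 for the 5 control_K arrays, where the authors' gProcessedSignal is background-subtracted and detrended within the array but not scaled between arrays. The deposited series table holds intensities that the authors had normalized, and their log2 values were used as an alternative. Here spots flagged as outliers were left out, spots of a probe were averaged, and log2 values of all 43 arrays were normalized by cyclic loess as the study did. Probes below a log2 signal of 4 on 30 or more of the 43 arrays were removed. This took out 5121 probes and left 16354.

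Positive and unknown animals were compared with limma 3.58.1 in R 4.3.3, with slide as a fixed block and Benjamini-Hochberg adjustment over all probes tested. A call needed an adjusted p under 0.05 and a 2-fold difference. Residual degrees of freedom were 5, and 6 values of the 8 arrays were missing. The script was tested on simulated data. Exact two-sided permutations of status within slides gave the p of the distance and spread. The number of animals limits the precision. The limma p-values set the difference between the statuses against the spread between these animals, which limma draws in part from all probes. Array position ran with status, so these p-values do not separate the 2. The labels give the 2 statuses no replicate numbers that pair animals.

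Probes were named through the gene ID, symbol, accession or description on the array and the RefSeq gene table of ARS-UCD2.0, which gave 17303 probes 1 of 15561 symbols. A list took 1 probe per gene, the brightest over 43 arrays. Single genes were the called ones, filled by the smallest unadjusted p among probes that the scanner software marked as clearly detected on each array of the status with more signal, of at least 2-fold and without overlap within either slide. To these were added the study's qRT-PCR and classifier genes and up to 4 members of each list. After the values were seen, the list members at an unadjusted p under 0.05 were added, and also CLEC12A, RNASE6, FKBP5, PER1, TSC22D3, NR3C1, NR3C2, CD3D, MYL1, MYH4, ISG15 and MX1. The animals compared and the lists were chosen with earlier results of these data known. Alternatives were other normalizations, background corrections, filters, block terms, array weights and animals left out. The position term, positions 1 and 2 against 3 and 4, and the fit without animals 78 and 79 were chosen after seeing the data. Single members of the nerve and Schwann cell list are not reported here.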

Additional observations from a re-analysis of the deposited data

Results flagged for a closer look

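Among 120 sets of 4 animals checked, 4 had 1 animal far from the other 3, by Dixon's ratio of its gap to the whole range. Chance gives such a gap in about 1 in 20 sets. The mean log2 level of interferon-induced genes was 9.08 in S54, against 6.5 in the nearest positive animal. RASSF2 was at 6.19 in S57, against 7.03 in the nearest. TSPAN12 was at 8.16 in S54, against 7.4. NAT14 was at 11.93 in unknown animal 50, against 12.21.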

How the results depend on the processing

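No call was made in the comparison as reported, but array weights gave 5 calls, the share of spots above background as a covariate gave 4, and leaving out 1 animal gave 0 to 9, the 9 without animal 79. Called list members were 1 with array weights, 1 with the covariate and 0 to 2 with 1 animal left out. The cause was not tested. Probes called between slides, 1 as reported, were 0 with 75th percentile scaling, quantile normalization, normexp, the series table, no filter, the filter on spots well above background, the covariate and without animals 50 and 79. They were 4 with loess on every pair, 5 with array weights and 0 to 4 with 1 animal left out.

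The medians of 4 lists kept their sign in every alternative run, from -1.41 to -0.51 for leukocyte, -1.31 to -0.41 for matrix, -1.18 to -0.27 for antigen presentation and -0.84 to -0.28 for glucocorticoid-induced genes. The last was -0.84 with the position term and -0.28 without animals 78 and 79. Probes at an unadjusted p under 0.05 numbered 794 with the position term, 974 without animals 78 and 79, 1219 with normexp and 2841 with loess on every pair. The lower share of them, 62.6% as reported, was 30.9% with quantile normalization, 49.9% with loess over the 8 arrays alone and 77.5% with loess on every pair. The median over all probes was then 0.13, 0.02 and -0.11. The distance difference ran from 0.0328 to 0.207. The log2 spread ratio, -0.83 as reported, was 0.27 with normexp and -1.67 to 0.38 with 1 animal left out, and it could not be computed without animals 50 and 79.

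Some gene differences turned sign. TNNC2, MYBPC2 and HOXA9, at -1.99, -2.81 and -1.22 as reported, were among them. With the position term LUM was at 0.22, PIK3R1 at 0.05, MYOZ2 at -0.11, TNNC2 at 0.15, HADHB at -0.11, DCN at 0, ATP5PB at -0.16, ACADM at -0.25, SIRT3 at -0.01, BLVRB at -0.09, NAT14 at -0.03 and MYBPC2 at 0.06. With loess on every pair HADHB was at -0.08, SIRT3 at -0.03, HOXA9 at 0.56 and MEN1 at 0.04. Without animals 78 and 79 GLUL was at 0.02, MEN1 at 0.13, SIRT3 at -0.04, AMPD1 at -0.32, PCCB at 0.02 and IPO9 at -0.09. Without animals 50 and 79 IPO9 was at -0.09, MEN1 at 0.04 and PCCB at 0.04. MEN1 was at 0.08 and PCCB at 0.1 with 75th percentile scaling, and MEN1 was at 0 with quantile normalization, 0.05 with array weights and 0.02 with the covariate. With 1 animal left out IPO9 ran from -0.02 to 0.28, MEN1 from -0.06 to 0.07, PCCB from -0.11 to 0 and USP18 from 0 to 1.19. No paired analysis was possible because the replicate numbers do not pair animals.

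Array position ran with status, the labels give only suspected treatment, and 4 animals of each status limit the precision.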
